A study of Mus musculus with 6 samples.

Results

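The fibroblast growth factor (FGF) system of the mouse incisor mesenchyme was described by 10 genes, 7 ligands (Fgf1, Fgf2, Fgf3, Fgf7, Fgf9, Fgf10 and Fgf18) and 3 receptors (Fgfr1, Fgfr2 and Fgfr3). They were taken by gene symbol from a table of 23718 listed genes, and all 10 were in it. RNA was sequenced from mesenchymal stem cells (MSCs) and from transit amplifying cells (TACs), the dividing progeny of MSCs, to learn how the expression programs of these populations differ. MSC samples (n = 3) came from Gli1-CreER;tdT mice and TAC samples (n = 3) from Axin2-CreER;tdT mice. All animals were labelled C57BL/6, although the methods speak of a mixed background, were 1 month old, and by the methods of the study had received tamoxifen 1 day earlier, with 3 mice in each group. The Cre drivers switched on a red fluorescent reporter (tdTomato), and labelled tissue at the cervical loop end of the incisor was then cut from sections by laser capture microdissection. The groups therefore differed in driver line as well as in region, and a captured piece of tissue can hold neighbouring cells of other types. In such bulk samples, fewer cells of a type and less RNA per cell cannot be told apart.

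Most FGFs are secreted proteins that bind receptor tyrosine kinases on the cell surface together with heparan sulfate. The occupied receptor passes its signal through adaptor proteins to RAS and the ERK kinases. Cells answer by switching on feedback inhibitors such as sprouty proteins and ETS factors such as Etv4 and Etv5. In the incisor, mesenchymal FGFs are known to act on the epithelial stem cells of the cervical loop, and epithelial FGFs act on the mesenchyme. Each receptor gene gives splice forms with different ligand preferences, which a value summed over the gene cannot separate.

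Values are normalized read numbers as deposited, scaled between libraries but not divided by gene length, so a gene can be compared across libraries. Levels of different genes were compared only per kilobase (kb) of exons. Differences are log2 fold changes, TAC minus MSC, of (normalized read number + 1), with adjusted p-values from limma by the Benjamini-Hochberg method over 15391 genes with a mean of at least 1.

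The libraries fell into sets before any FGF gene was considered. Replicates 1 and 2 of each group held between 20203159 and 25567244 estimated reads, whereas MSC replicate 3 held 59793645 and TAC replicate 3 held 108156380. Yet 43.1% of listed genes had no read in MSC replicate 3 and 28.3% had none in TAC replicate 3, against 6.89% to 8.36% in the other 4 libraries. Of the label checks, Gli1 was 256, 245 and 422 in MSC replicates 1 to 3 and 153, 141 and 396 in TAC replicates 1 to 3 (adjusted p = 0.718, limma). Axin2 was 58.3, 47.99 and 12.0 in MSCs and 56.8, 63.9 and 34.1 in TACs (adjusted p = 0.758, limma). Neither driver gene thus passed the test between the groups, and for both the groups overlapped. The 8 dental mesenchyme genes were detected in every library, with sums of 3410 to 12091 in MSCs and 9345 to 13453 in TACs. Mki67, the dividing cell marker used for TACs, was 137, 130 and 41.5 in MSCs and 593, 630 and 122 in TACs (adjusted p = 0.361, limma). Because the replicate 3 libraries stood apart, each FGF fold change is also given within replicates 1 and 2 and within replicate 3, where 1 library was set against 1 library and no test is possible.

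None of the 10 FGF genes passed the adjusted threshold of 0.05 (limma), where 0.422% of all tested genes did. At an unadjusted p under 0.05, the threshold named in the methods of the study, 5 passed, against 11.9% of all tested genes. The 5 were Fgf3, which was higher in TACs, and Fgf2, Fgf7, Fgfr2 and Fgfr3, which were higher in MSCs. For these same 5 the 3 MSC libraries and the 3 TAC libraries did not overlap, a property shared by 24.5% of tested genes. Limma voom on the estimated reads also called 0 of the FGF genes (0.149% of all tested genes), with 5 at an unadjusted p under 0.05 (23.2% of all tested genes). Only 8 of the 10 were tested, since Fgf9 and Fgf18 had means under 1, and Fgf7 entered the test through its MSC values alone, so its p is given as description and the count without it is 4. The median log2 fold change of the 8 was -0.25, beside 0.026 for all tested genes. With 3 libraries in each group and the spread between replicate 3 and the others, the 95% intervals of the log2 fold changes were wide, and those of Fgf1, Fgf10 and Fgfr1 held 0. With the library set as a batch term, 3 of the FGF genes (Fgf3, Fgfr2 and Fgfr3) passed the adjusted threshold, as did 11.8% of all tested genes. Without MSC replicate 3, 2 passed (Fgf3 and Fgfr2), beside 1.9% of all tested genes, and in replicates 1 and 2 only, 6 passed, beside 44.2%. The last fit measures spread within replicates 1 and 2 and none to replicate 3, and its 6 include Fgf7.

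**Figure D1:**
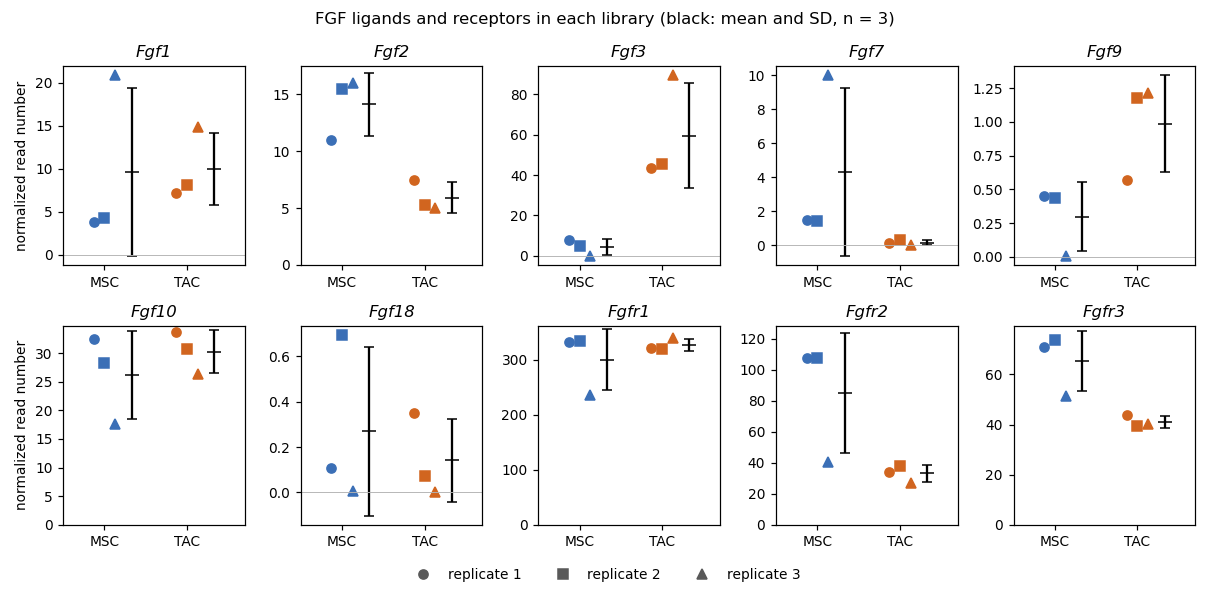
Normalized read number (vertical axes, linear) of the 10 FGF genes in the 3 MSC and 3 TAC libraries, with the mean and SD of each group in black (n = 3). Fgf3 sits at 43.3 or more in every TAC library and at 7.70 or less in every MSC library, while Fgf10 and Fgfr1 overlap between the groups.

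Promoter sequence is shown for Fgf3 and Fgf7, because these ligands had the largest ratios between the group means, in opposite directions. The windows are the first 230 bases of the RefSeq promoter records on GRCm38.p6, which end 20 bases before the start site in those records, written 5′ to 3′ on the strand of the gene. That of Fgf3 is chr7:144838362-144838591 (plus strand) and that of Fgf7 is chr2:126034408-126034637 (plus strand). The RefSeq start of Fgf3 (144838612) lies downstream of the gene start in the deposited table, so the Fgf3 window is inside the deposited gene span.
Fgf3: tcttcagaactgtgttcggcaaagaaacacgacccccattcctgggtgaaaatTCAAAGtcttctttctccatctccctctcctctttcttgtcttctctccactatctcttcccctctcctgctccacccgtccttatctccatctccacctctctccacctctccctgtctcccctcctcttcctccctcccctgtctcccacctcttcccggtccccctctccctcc
Fgf7: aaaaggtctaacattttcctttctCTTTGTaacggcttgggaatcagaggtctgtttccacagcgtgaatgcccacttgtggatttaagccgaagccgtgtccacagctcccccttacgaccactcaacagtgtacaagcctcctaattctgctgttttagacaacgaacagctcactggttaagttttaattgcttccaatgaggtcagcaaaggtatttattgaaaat
Capitals mark the letters CTTTGA or CTTTGT, on either strand, which are the core read by TCF/LEF factors of the WNT pathway. A match stood in each of the windows, on the minus strand for Fgf3 and on the plus strand for Fgf7. Of 32851 RefSeq windows of this length, 26.1% held such letters. Another 3 motifs were searched on both strands, the ETS core CCGGAA (in 10.3% of windows), the TATA box TATAAA (11.8%) and the GC box GGGCGG (29.8%), and none of them was in either window. A match is a description of the sequence and says nothing on binding. The bases differed in composition, with 55.2% G or C in the Fgf3 window and 43.5% in that of Fgf7.

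Among the tested ligands, Fgf3 had the largest log2 fold change with a pseudocount of 1, while Fgf7 had the larger ratio of group means. Fgf3, a ligand made in the dental mesenchyme and known to maintain growth of the tooth epithelium, lies at chr7:144838083-144844436 on the plus strand (mm10). Its normalized read numbers were 7.70, 5.10 and 0.00666 in MSC replicates 1 to 3 and 43.3, 45.6 and 89.5 in TAC replicates 1 to 3. Every TAC library was above every MSC library, with a gap from 7.70 to 43.3 between the groups. The group means were 4.27 ± 3.91 in MSCs and 59.5 ± 26.0 in TACs (SD, n = 3 each), a 13.9-fold ratio. The log2 fold change was 3.92 (SE 0.82, 95% interval 2.01 to 5.84), with an unadjusted p of 0.00175 and an adjusted p of 0.123 (limma), so it did not pass.

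The size of the Fgf3 difference depended on the library set. Within replicates 1 and 2 its log2 fold change was 2.64, and within replicate 3 it was 6.49. The lowest value stands for 0 estimated reads in MSC replicate 3, where TAC replicate 3 had 23618. Against a floor of 3 reads in MSC replicate 3, Fgf3 was at least 4484-fold higher in TAC replicate 3. This bound covers counting error in those libraries only, and 43.1% of listed genes had no read in MSC replicate 3. In MSC replicates 1 and 2 the gene had 288 and 175 reads, so transcripts were detected there. The adjusted p was 0.0336 with the library set as a batch term and 0.0393 without MSC replicate 3 (log2 fold change 2.97, limma). Over all alternatives it ran from 4.82e-06, in replicates 1 and 2 only, to 0.450 (limma). No other annotated gene shares exon bases with Fgf3.

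Fgf7, a mesenchymal ligand that acts on epithelial cells through a splice form of Fgfr2, went the other way. It lies at chr2:126034658-126091185 on the plus strand. Its values were 1.47, 1.45 and 10.02 in MSC replicates 1 to 3 and 0.131, 0.288 and 0.00379 in TAC replicates 1 to 3. The groups did not overlap, and MSC replicate 3 was far above the other MSC libraries. The means were 4.31 ± 4.95 in MSCs and 0.141 ± 0.142 in TACs (SD, n = 3 each), with a ratio of 30.6 to which MSC replicate 3 contributed most. The log2 fold change was -1.84 (SE 0.71, 95% interval -3.50 to -0.17, adjusted p = 0.371, limma), and the pseudocount makes it smaller than the ratio of means. Since Fgf7 passed the filter on low values through MSCs alone, these values are description only. Fgf7 was read 54, 49 and 1505 times in the MSC libraries and 5, 11 and 0 times in the TAC libraries. Within replicates 1 and 2 the log2 fold change was -1.03, and within replicate 3 it was -3.46. Against the floor of 3 reads in TAC replicate 3, Fgf7 was at least 881-fold higher in MSC replicate 3. This again covers counting error in those libraries only, and 28.3% of listed genes had no read in TAC replicate 3.

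Fgf2, a ligand held in the extracellular matrix that acts on mesenchymal cells, was the other tested ligand with separate groups. It lies at chr3:37348346-37410108 on the plus strand. Its values were 10.97, 15.5 and 15.98 in MSC replicates 1 to 3 and 7.47, 5.27 and 4.99 in TAC replicates 1 to 3. All MSC libraries were above all TAC libraries, and replicate 3 lay close to replicate 2 in both groups. The means were 14.1 ± 2.76 and 5.91 ± 1.36 (SD, n = 3 each), which is 2.39-fold higher in MSCs. On the log2 scale the difference of Fgf2 was -1.13 (SE 0.40, 95% interval -2.07 to -0.19), with an unadjusted p of 0.0248 and an adjusted p of 0.330 (limma). It was -0.95 within replicates 1 and 2 and -1.50 within replicate 3. Of the exon bases of Fgf2, 895 (13.2%) are shared with other genes, chiefly Nudt6, which is read from the opposite strand. The use of strand in counting is not given in the sources used here, so reads over the shared bases cannot be told apart. Nudt6 itself was at most 2.99 in any library.

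Fgf10, the ligand of the mesenchyme that sustains epithelial stem cells of the incisor, was at similar values in the groups. It lies at chr13:118669791-118792115 on the plus strand. Its values were 32.5, 28.3 and 17.6 in MSC replicates 1 to 3 and 33.7, 30.7 and 26.3 in TAC replicates 1 to 3. The ranges overlapped, although TAC was higher than MSC in 3 of 3 same-numbered pairs. Its log2 difference was 0.24 (SE 0.33, adjusted p = 0.844, limma), and its 95% interval of -0.53 to 1.00 still allows a doubling in TACs. It was 0.082 within replicates 1 and 2 and 0.55 within replicate 3, and without MSC replicate 3 it was -0.012.

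Fgf1, an acidic ligand that can bind all FGF receptors, was highest in replicate 3 of each group. It lies at chr18:38838673-38929472 on the minus strand (GENCODE). Its values were 3.78, 4.23 and 20.9 in MSC replicates 1 to 3 and 7.16, 8.06 and 14.8 in TAC replicates 1 to 3. The groups overlapped, and MSC replicate 3 was above every TAC library. Its log2 difference was 0.36 (SE 0.68, 95% interval -1.24 to 1.97, adjusted p = 0.897, limma). Its direction differed between the sets, with 0.78 within replicates 1 and 2 and -0.47 within replicate 3.

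The remaining ligands had means under 1 and were not tested in the main comparison. Fgf9, which in tooth germs is made mainly by the epithelium, lies at chr14:58070547-58112720 on the plus strand. Its values were 0.453, 0.435 and 0.00666 in MSC replicates 1 to 3 and 0.569, 1.17 and 1.21 in TAC replicates 1 to 3. TAC libraries were above MSC libraries without overlap, on 16, 14 and 0 reads against 25, 48 and 319. Against the floor of 3 reads in MSC replicate 3, Fgf9 was at least 60.8-fold higher in TAC replicate 3. This bound, too, covers counting error in those libraries only. With no filter on low values the log2 fold change of Fgf9 was 0.62 (SE 0.33, adjusted p = 0.736, limma), and it was 0.36 within replicates 1 and 2 and 1.14 within replicate 3. Fgf18, a ligand of bone and cartilage growth, lies at chr11:33117430-33147400 on the minus strand. Its reads numbered 3, 23 and 0 in MSCs and 15, 2 and 0 in TACs, and the groups overlapped (log2 fold change -0.13, SE 0.24, adjusted p = 0.911, limma with no filter). Within replicates 1 and 2 the log2 fold change of Fgf18 was -0.19, and neither replicate 3 library had a read, although these libraries held the most reads in total.

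Among the receptors, Fgfr2 and Fgfr3 were higher in MSCs and Fgfr1 overlapped between the groups. Fgfr2, the receptor whose splice forms serve epithelium and mesenchyme, lies at chr7:130162451-133123350 on the minus strand. This annotated span takes in other genes, but only 314 exon bases (3.04%) are shared, with Ctbp2. Its values were 107, 107 and 40.6 in MSC replicates 1 to 3 and 34.3, 37.8 and 27.1 in TAC replicates 1 to 3. Replicate 3 was the lowest library in each group, and its MSC value lay just above the highest TAC value. The means were 85.1 ± 38.5 in MSCs and 33.1 ± 5.49 in TACs (SD, n = 3 each), a 2.57-fold ratio. On the log2 scale the difference of Fgfr2 was -1.22 (SE 0.43, 95% interval -2.22 to -0.22), with an unadjusted p of 0.0230 and an adjusted p of 0.322 (limma). It was -1.55 within replicates 1 and 2 and -0.57 within replicate 3. The adjusted p was 0.0259 with the library set as a batch term and 0.0389 without MSC replicate 3 (log2 fold change -1.68, limma). Over all alternatives it ran from 7.02e-07, in replicates 1 and 2 only, to 0.741 (limma).

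Fgfr3, a receptor known to restrain bone growth, lies at chr5:33721674-33737068 on the plus strand. Its values were 71.0, 73.7 and 51.5 in MSC replicates 1 to 3 and 43.6, 39.3 and 40.03 in TAC replicates 1 to 3. The groups did not overlap, and the TAC libraries lay close together. The means were 65.4 ± 12.1 and 40.98 ± 2.29 (SD, n = 3 each), which is 1.60-fold higher in MSCs. Fgfr3 had a log2 difference of -0.65 (SE 0.26, 95% interval -1.26 to -0.027), with an unadjusted p of 0.0430 and an adjusted p of 0.398 (limma). It was -0.79 within replicates 1 and 2 and -0.36 within replicate 3. The adjusted p was 0.0424 with the library set as a batch term and 0.148 with the replicate block (limma). Over all alternatives it ran from 6.05e-05, in replicates 1 and 2 only, to 0.822 (limma). Of the exon bases of Fgfr3, 998 (13.9%) are shared with G630022F23Rik, which was at most 5.38 in any library.

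Fgfr1, the main receptor of mesenchymal cells, lies at chr8:25513654-25575718 on the plus strand. Its values were 331, 333 and 235 in MSC replicates 1 to 3 and 321, 320 and 339 in TAC replicates 1 to 3. Apart from MSC replicate 3, the 5 libraries lay between 320 and 339. The means were 299.8 ± 55.8 and 327 ± 10.7 (SD, n = 3 each), with a log2 fold change of 0.14 (SE 0.32, 95% interval -0.60 to 0.88, adjusted p = 0.918, limma). It was -0.051 within replicates 1 and 2 and 0.52 within replicate 3.

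**Figure D2:**
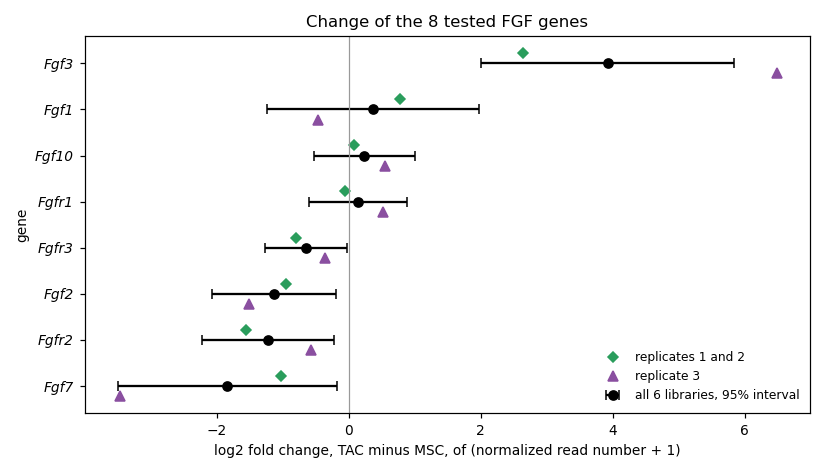
Log2 fold change, TAC minus MSC, of (normalized read number + 1) for the 8 tested FGF genes, with the 95% interval from limma over 6 libraries in black and the values within replicates 1 and 2 (diamonds) and within replicate 3 (triangles). For 6 of the 8 genes both sets lie on the same side of 0, and for Fgf1 and Fgfr1 they lie on opposite sides.

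Per kb of exons, Fgfr1 was the most abundant of the 10 genes in MSCs at 30.4 ± 5.65 (SD, n = 3), with no overlap with the next gene. Fgfr3 (9.13 ± 1.69 per kb), Fgfr2 (8.24 ± 3.73 per kb) and Fgf10 (5.68 ± 1.67 per kb) followed in MSCs, and neighbours in this order overlapped. Fgf2 came next in MSCs at 2.09 ± 0.406 per kb, below every Fgf10 value, and Fgf3, Fgf1, Fgf7, Fgf18 and Fgf9 followed with overlapping ranges.

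The order in TACs was different near the top. Fgfr1 at 33.1 ± 1.08 per kb was followed by Fgf3 at 25.6 ± 11.2 per kb (SD, n = 3 each), and these overlapped because Fgf3 reached 38.5 per kb in TAC replicate 3. Fgf10 (6.57 ± 0.813 per kb) and Fgfr3 (5.73 ± 0.320 per kb) came next in TACs and overlapped with each other but not with Fgf3. Fgfr2 at 3.20 ± 0.531 per kb overlapped with Fgf1 at 1.83 ± 0.766 per kb, and Fgf2 at 0.872 ± 0.200 per kb lay below both. Fgf9, Fgf18 and Fgf7 were each at or below 0.212 per kb on average in TACs.

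**Figure D3:**
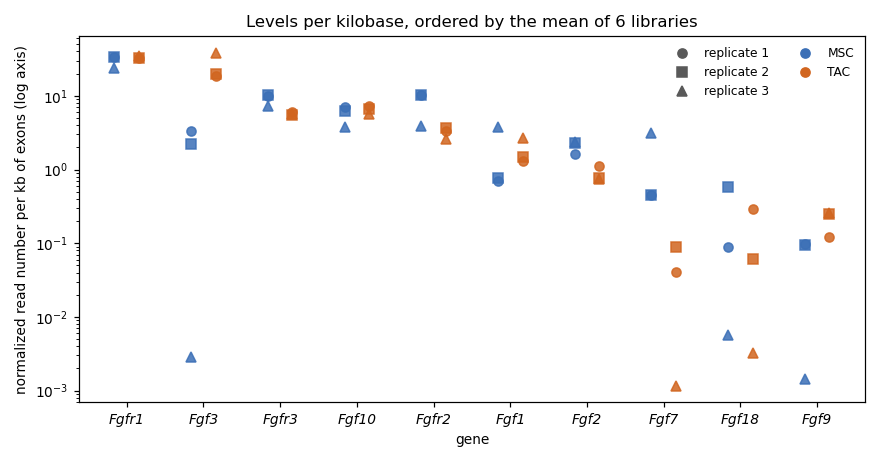
Normalized read number per kb of exons (logarithmic axis) of the 10 FGF genes in each library, ordered by the mean of the 6 libraries. Fgfr1 is first, and Fgf3 holds the second place through its TAC values while in MSC replicate 3 it is at the level of 0 reads.

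Ratios per kb of FGF genes inside a library do not depend on the scaling between libraries. The 5 ratios were chosen after the values were seen and are given as description with no test. Per kb, Fgf3 over Fgf10 was 0.468, 0.356 and 0.000748 in MSC replicates 1 to 3 and 2.54, 2.94 and 6.74 in TAC replicates 1 to 3. Fgf3 was therefore below Fgf10 per kb in each MSC library and above it in each TAC library. Per kb, Fgf3 made up 0.0218% to 24.8% of the 7 ligands in MSC libraries and 64.6% to 80.3% in TAC libraries. Fgf10 made up 29.2% to 53.0% of the ligands per kb in MSCs and 11.9% to 25.4% in TACs.

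The shares of the receptors per kb also lay apart between the groups. Per kb, Fgfr2 over Fgfr1 was 0.310, 0.308 and 0.165 in MSC replicates 1 to 3 and 0.102, 0.113 and 0.0764 in TAC replicates 1 to 3. Fgfr3 over Fgfr1, also per kb, was 0.296, 0.305 and 0.302 in MSCs and 0.187, 0.170 and 0.163 in TACs. For this ratio, MSC replicate 3 lay within the range of the other MSC libraries, which was not so for Fgfr3 alone. Fgfr3 over Fgfr2 per kb overlapped between the groups, since MSC replicate 3 at 1.83 was above TAC replicate 2, while MSC replicates 1 and 2 were at 0.955 and 0.991 and the highest TAC value was 2.13. Per kb, Fgfr1 made up 61.98% to 68.2% of the 3 receptors in MSC libraries and 77.5% to 80.7% in TAC libraries.

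**Figure D4:**
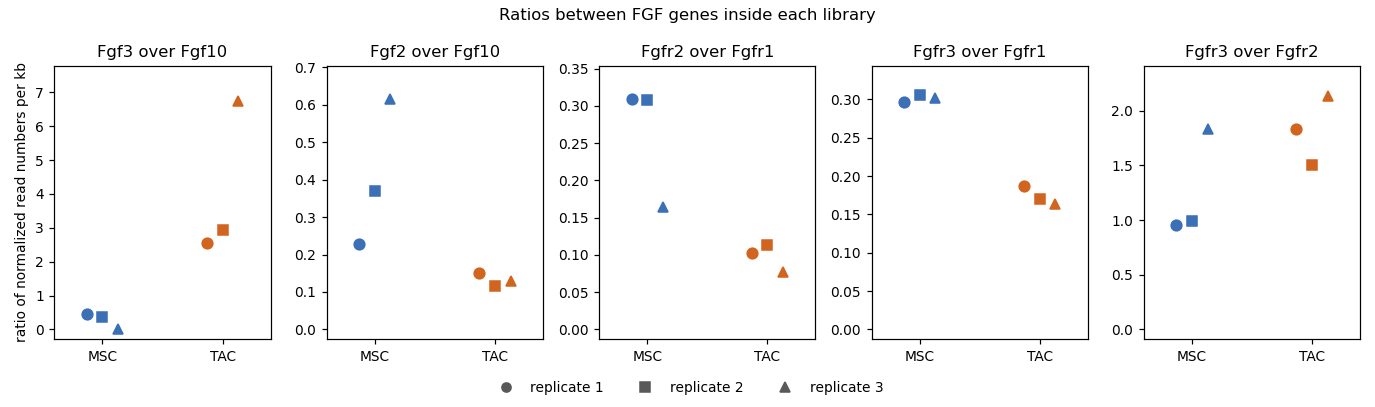
Ratios of normalized read numbers per kb of exons between FGF genes inside each library (vertical axes, linear), by group. MSC and TAC libraries are separate in 4 of the 5 panels, with Fgf3 over Fgf10 higher in TACs and 3 ratios higher in MSCs, and they overlap for Fgfr3 over Fgfr2.

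Markers of other cell types moved with the groups, and their part in the FGF differences was not tested. Of all tested genes, 0.422% passed the adjusted threshold, 12.3% had TAC above MSC without overlap and 12.2% had MSC above TAC. All 6 smooth muscle and pericyte genes were detected in every library, with a summed normalized read number of 828 to 1479 in MSCs and 88.6 to 126 in TACs, and 5 of the 6 passed the adjusted threshold (limma). The 6 endothelial genes summed to 216 to 226 in MSCs and 63.7 to 90.0 in TACs, with MSC above TAC without overlap for 3 and 0 past the threshold. The 5 Schwann cell genes summed to 22.5 to 46.2 in MSCs and 8.32 to 19.3 in TACs, with MSC above TAC without overlap for 2 and 0 past the threshold. The 6 immune genes summed to 72.3 to 157 in MSCs and 38.9 to 88.9 in TACs, with MSC above TAC without overlap for 2 and 0 past the threshold. These lists were on the side of Fgf2, Fgf7, Fgfr2 and Fgfr3, although the immune sums overlapped between the groups. On the side of Fgf3, the 6 proliferation genes summed to 128 to 216 in MSCs and 319 to 992 in TACs (TAC above MSC without overlap for 4, with 1 called, Cdk1). Epithelial genes other than those of enamel (7 genes) summed to 31.1 to 33.8 in MSCs and 58.8 to 93.2 in TACs, with TAC above MSC without overlap for 4, and 5 of the 7 had no read in MSC replicate 3. The 8 dental mesenchyme genes went both ways, with MSC above TAC without overlap for 3 and TAC above MSC for 1. So did the 4 dental follicle genes, with Ptn above in TACs and Pthlh and Mfap5 above in MSCs without overlap. Enamel genes (Amelx, Ambn and Enam), products of epithelial ameloblasts, were present in all libraries at sums of 269 to 3631 in MSCs and 2060 to 3294 in TACs. Enamel and other epithelial genes had been chosen as a single list, of which 10 genes were present. Its sums of 300 to 3665 in MSCs and 2154 to 3353 in TACs overlapped between the groups.

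Outside the 10 genes, 75 other genes of the FGF pathway were listed and 69 tested, and 0 passed the adjusted threshold (limma), with 8 higher and 3 lower in TACs at an unadjusted p under 0.05, beside 5.42% higher and 6.43% lower of all tested genes. Of these 8 and 3, Fgf8 entered the test through its TAC values alone and Hs3st1 through its MSC values alone. The median log2 fold change of the 69 was -0.077. With the replicate number as a block, 229 genes of the whole table (1.49%) passed against 65 without it, and 2 of the 69 did: Ncam1 (-1.50, adjusted p = 0.0359) and Il17rd (1.42, adjusted p = 0.0477, limma). Ncam1 is a cell adhesion molecule that binds FGF receptors, and Il17rd is an inhibitor of FGF signaling. No FGF ligand or receptor changed its call under the block.

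Feedback inhibitors and target genes of FGF signaling made up 6 of the 8 pathway genes that were higher in TACs at an unadjusted p under 0.05. Of 14 tested, 6 were thus higher and 1 lower, where 5.42% of all tested genes were higher and 6.43% lower. Without overlap between the groups, 7 were higher and 2 lower, where 12.3% of all tested genes were higher and 12.2% lower. Their median log2 fold change was 1.12, and it was 1.06 within replicates 1 and 2 and 2.06 within replicate 3. Etv4, an ETS factor switched on by FGF signals, was 7.22, 6.78 and 2.74 in MSC replicates 1 to 3 and 37.2, 35.1 and 73.2 in TAC replicates 1 to 3. As for Fgf3, replicate 3 was the lowest MSC and the highest TAC library. Etv4 differed by 2.91 on the log2 scale (SE 0.47, adjusted p = 0.0709), Etv5 had 2.36 (SE 0.40, adjusted p = 0.0768) and the inhibitor Spry4 had 1.93 (SE 0.41, adjusted p = 0.126), all by limma. Egr1, an immediate early factor, was on the other side at -1.10 (SE 0.42, adjusted p = 0.371, limma).

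In the other lists, 1 gene each was at an unadjusted p under 0.05, a share to be read against the 11.9% of all tested genes. Of the 6 tested further FGF family genes, this was Fgf8, at 0.480, 0.637 and 0.00666 in MSC replicates 1 to 3 and 2.43, 2.95 and 3.47 in TAC replicates 1 to 3. Fgf8 is an early epithelial signal of tooth formation, and its log2 difference was 1.54 (SE 0.49, adjusted p = 0.280, limma). It entered the test through its TAC values alone, so this is given as description. Of 16 tested cofactors, it was Cdh2, an adhesion molecule that binds FGF receptors (log2 fold change 0.85, SE 0.36, adjusted p = 0.414, limma). Of 12 heparan sulfate enzymes, it was the sulfotransferase Hs3st1 (-1.45, SE 0.51, adjusted p = 0.331, limma), which entered the test through its MSC values alone. Of 21 genes of the signal relay, it was the adaptor Gab1 (-1.03, SE 0.34, adjusted p = 0.302, limma). Without overlap between the groups, 1 family gene was higher and 1 lower in TACs, and 1 cofactor was higher and 4 lower. Of the heparan sulfate enzymes 0 were higher and 3 lower, and 1 relay gene was higher and 4 lower. These counts hold Fgf8 and Hs3st1, and are to be read beside 12.3% higher and 12.2% lower of all tested genes.

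**Figure D5:**
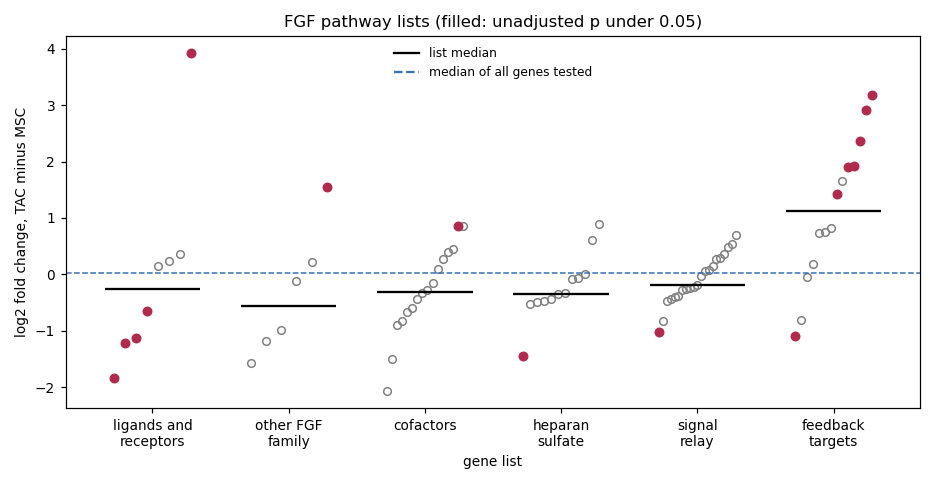
Log2 fold change, TAC minus MSC, of each tested gene in the 10-gene FGF set and in 5 other FGF pathway lists, with the median of each list (black) and of all tested genes (dashed). Filled points have an unadjusted p under 0.05, and 6 of the 14 feedback targets are filled above 0.

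The tested genes most like Fgf3 over the 6 libraries were Gm11532, Adamts18, a secreted metalloprotease, and Tacc3, a protein of the mitotic spindle. Their root mean square differences from Fgf3, in log2 values centred over the 6 libraries, were 0.454, 0.496 and 0.559.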

How the data were processed

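RNA from laser captured MSC and TAC regions (n = 3 each) was sequenced by the authors as single-end reads, trimmed, and aligned to mm10 with TopHat2 2.0.8. CASAVA 1.8.2 and Partek are named in their processing notes. The methods name RPKM, but in the deposited values 1 read is worth the same in genes of any length. The unit was taken as a deposited signal, in which the authors added 1 to an estimated read number and scaled it per library. Of low values (1 to 30 reads), 62.6% to 73.5% per library were whole within 0.02. The counting tool is not given in the sources used here. No listed gene stayed below 10 estimated reads in all libraries.

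From this signal, log2(value + 1) was fitted with limma 3.58.1 in R 4.3.3 (variance trend, TAC minus MSC, two-sided) for genes with a mean of at least 1, with Benjamini-Hochberg adjustment at 0.05. This log-scale test had been planned for RPKM-like values and also suits the scaled reads. The fit was tested on simulated data with independent noise and changed genes of low spread, without the difference between replicate 3 and the others. Library totals limit precision at low values, and floors of 3 reads cover counting error only. Replicates 1 and 2 of a group differed by more than counting noise (chi-square per degree of freedom 10.4 for MSCs and 8.49 for TACs). Replicates 1 and 3 differed far more, at 1590 for MSCs and 1943 for TACs. Deviations of same-numbered samples from their group means correlated at 0.477, 0.465 and 0.517, and the methods speak of pairs. The numbers were therefore taken as pairs in the replicate block, while the main fit used no pairing. The crossed pairings of replicates 1 and 2 correlated as well (0.462 and 0.480), so replicates 1 and 2 are not told apart by this check.

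Exon lengths came from GENCODE M21, where 94.6% of symbols were found and 90.6% of these had the deposited start and end once the end was lowered by 1. Coordinates are 1-based on mm10. Promoters came from RefSeq. The FGF genes, the pathway lists and the marker lists were chosen with earlier results of these data known. Genes named from the other lists were up to 3 per list and direction with the smallest unadjusted p under 0.05, every gene past the adjusted threshold, and the 3 genes nearest to the FGF gene with the largest log2 fold change. Ncam1, Il17rd and the genes that share exons were named after their values were seen. Alternatives were another pseudocount (0.1 or 5), another filter, median-ratio or quantile scaling, limma without the trend, voom, a replicate block, a library set term, replicates 1 and 2 only, and each library left out.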

Additional observations from a re-analysis of the deposited data

Results flagged for a closer look

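For 2 of the 8 tested FGF genes the direction differed between the library sets. Of all 15391 tested genes, 9426 had the same direction in both sets. Fgf1 had a log2 fold change of 0.78 within replicates 1 and 2, where both TAC libraries were above both MSC libraries, and -0.47 within replicate 3. Fgfr1 had -0.051 within replicates 1 and 2, where both TAC libraries were below both MSC libraries, and 0.52 within replicate 3. Replicate 3 is 1 library in each group, so the difference between the sets was not tested.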

How the results depend on the processing

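The 65 genes called over the whole table became 38 with a pseudocount of 0.1, 29 without the variance trend, 23 with voom, 229 with the replicate block, 1814 with the library set as a batch term and 6796 in replicates 1 and 2 only. Leaving out 1 library gave 0 to 292. The count was 292 without MSC replicate 3, 36 without TAC replicate 3, and 0 (limma) when replicate 1 or 2 of MSCs (1360 and 1367 genes at an unadjusted p under 0.05) or of TACs (1036 and 1028) was left out. Of the FGF genes, 0 called became 3 with the library set term, 6 in replicates 1 and 2 only and 0 to 2 when 1 library was left out (2 without MSC replicate 3). The 5 at an unadjusted p under 0.05 became 3 with quantile scaling and 2 to 6 when 1 library was left out, 3 without MSC replicate 1 or TAC replicate 3 and 2 without either TAC replicate 1 or 2, or without MSC replicate 2. Of the other pathway genes, 0 called became 1 with quantile scaling, 2 with the replicate block, 13 with the library set term, 38 in replicates 1 and 2 only and 0 to 4 when 1 library was left out. The replicate block, which pairs same-numbered samples, changed no call of an FGF ligand or receptor.

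The log2 fold change changed sign for Fgf1 with voom (-0.20), without MSC replicate 1 (-0.023) and within replicate 3 (-0.47), for Fgf10 without MSC replicate 3 (-0.012), and for Fgfr1 without MSC replicate 3 (-0.024) and in replicates 1 and 2 only (-0.051). Leaving out 1 library gave -0.023 to 1.07 for Fgf1, -0.012 to 0.41 for Fgf10 and -0.024 to 0.23 for Fgfr1. Fgf3, Fgf2, Fgf7, Fgfr2 and Fgfr3 kept their direction under every alternative that gave a value, and Fgf7 had none under a mean of at least 5. The log2 fold change of Fgf3 ran from 2.64 in replicates 1 and 2 only to 9.48 with voom. That of Fgf7 ran from -8.57 with voom to -0.74 with a pseudocount of 5. Both genes have a library with 0 reads, where the pseudocount sets the value. Fits of 2 libraries against 2 rest on fewer samples, and that of replicates 1 and 2 only measures no spread to replicate 3. Causes of the other changes were not tested. Fgf9 and Fgf18 had at most 48 reads in any library of replicates 1 and 2, so their counting error is large there.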
